A study of Mus musculus with 82 samples.

Results

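The loci described here belong to 10 genes of bone morphogenetic protein (BMP) signalling and its targets. They are the ligands Bmp4 and Bmp7, the type I receptor Bmpr1a, the signal transducer Smad1, the inhibitory Smad6, the extracellular antagonist Grem1 and the Id genes Id1, Id2, Id3 and Id4. The genes were chosen by name, with no threshold on measured values but with earlier results of these data known, out of 21887 protein-coding genes on chromosomes 1 to 19, X and Y of the RefSeq gene table of GRCm38.p6. A peak was assigned to a gene when it overlapped that gene by at least 1 bp, or when its centre lay within 100 kb of a gene end that was the nearest protein-coding gene end. Under this rule the 10 loci held 34 of 36375 peaks in the Flag day 3 list and 29 of 29189 in the D209N day 3 list. At day 7 they held 53 of 42439 peaks in the Flag list and 54 of 40452 in the D209N list.

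The study reprogrammed mouse embryonic fibroblasts, named OG2-MEFs in the labels, with OSKM delivered by retrovirus, which stands for Oct4, Sox2, Klf4 and c-Myc. The series has 82 samples, of which 8 are ATAC-seq samples in 4 groups of 2 replicates: OSKM with Flag at day 3, OSKM with RNase H1(D209N) at day 3, and the same pair at day 7. RNase H1 degrades RNA that is paired with DNA, D209N is a substitution in its catalytic site, and Flag is taken here as the control that the series design names. All 4 groups carry the 4 reprogramming factors, and the added gene was also delivered by retrovirus, so the cells are infected populations and not single clones. The labels allow either iCD1 medium or embryonic stem cell medium with vitamin C after infection, without saying which applied to these samples. ATAC-seq marks accessible chromatin by transposase insertion, and each group has 1 deposited list of peak positions with no score and no depth. All peak names carry rep1 and the use of the replicates is not given, so a list may stand for 1 replicate or for both. No value below therefore has a replicate error or a test, a peak missing from a list may be accessible below the caller's threshold, and fewer accessible cells cannot be told apart from less accessibility per cell.

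BMP ligands bind pairs of type I and type II receptors, which phosphorylate SMAD1, SMAD5 and SMAD9 so that these enter the nucleus with SMAD4 and bind DNA. Among the best known direct targets are the Id genes, whose products hold back basic helix-loop-helix transcription factors, and Smad6, whose product limits the same signal. Secreted antagonists such as gremlin 1 bind the ligands outside the cell. In mouse embryonic stem cells BMP signalling through ID proteins is known to support self-renewal, and in fibroblasts under reprogramming BMPs are known to favour the transition to epithelial character.

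The promoter windows of 5 of the genes are printed because the start peaks described below turn on them. Each is the 300 bases from 250 before to 50 after the annotated start, from RefSeq on GRCm38.p6, written 5′ to 3′ on the gene's own strand. Capitals mark GGCGCC, a GC-rich element bound by BMP SMADs, GTCTAGAC, the palindromic SMAD element, and CAGAC or its reverse complement GTCTG, the SMAD box. The windows lie at chr12:25096043-25096342 on the minus strand (Id2), chr4:136143572-136143871 on the plus strand (Id3), and on the minus strand at chr9:64022010-64022309 (Smad6), chr2:113758599-113758898 (Grem1) and chr14:46390620-46390919 (Bmp4).
Id2: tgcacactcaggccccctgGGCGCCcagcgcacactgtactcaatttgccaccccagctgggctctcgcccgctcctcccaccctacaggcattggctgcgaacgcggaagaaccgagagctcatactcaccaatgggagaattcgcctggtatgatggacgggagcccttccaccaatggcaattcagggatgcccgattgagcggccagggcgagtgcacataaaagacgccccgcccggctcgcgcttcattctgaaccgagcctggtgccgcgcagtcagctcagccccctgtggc
Id3: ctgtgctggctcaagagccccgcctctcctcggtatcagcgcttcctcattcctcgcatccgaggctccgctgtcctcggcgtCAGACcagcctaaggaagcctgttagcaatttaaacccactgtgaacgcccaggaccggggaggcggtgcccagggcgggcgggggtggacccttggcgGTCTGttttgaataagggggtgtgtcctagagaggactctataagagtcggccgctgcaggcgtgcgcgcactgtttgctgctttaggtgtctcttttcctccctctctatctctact
Smad6: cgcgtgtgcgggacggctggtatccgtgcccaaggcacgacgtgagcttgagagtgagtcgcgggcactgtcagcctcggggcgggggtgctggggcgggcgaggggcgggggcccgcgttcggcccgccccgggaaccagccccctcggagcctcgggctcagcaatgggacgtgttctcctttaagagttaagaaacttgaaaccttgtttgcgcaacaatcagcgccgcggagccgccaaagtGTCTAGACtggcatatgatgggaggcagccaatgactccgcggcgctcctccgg
Grem1: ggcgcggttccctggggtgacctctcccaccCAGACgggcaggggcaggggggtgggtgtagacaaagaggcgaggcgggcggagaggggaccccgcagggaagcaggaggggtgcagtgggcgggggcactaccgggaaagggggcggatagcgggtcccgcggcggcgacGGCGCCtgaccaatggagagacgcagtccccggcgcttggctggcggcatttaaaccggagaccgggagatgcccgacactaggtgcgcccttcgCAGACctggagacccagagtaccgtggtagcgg
Bmp4: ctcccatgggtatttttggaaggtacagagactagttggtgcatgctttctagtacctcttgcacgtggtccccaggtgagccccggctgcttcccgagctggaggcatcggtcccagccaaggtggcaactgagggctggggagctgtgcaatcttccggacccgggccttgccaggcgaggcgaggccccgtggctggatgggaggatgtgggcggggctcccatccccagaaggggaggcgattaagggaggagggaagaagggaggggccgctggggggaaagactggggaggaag

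Promoter entries were matched for 8 of the 10 genes, all but Id1 and Bmp7. The palindrome GTCTAGAC stood in the Smad6 window alone of these 8, at bases 247 to 254, and 0.213% of the 32851 windows in the table hold it. GGCGCC stood in the windows of Id2, Id4, Bmpr1a and Grem1, so in 4 of 8, against 11.9% of all windows. CAGAC, searched on both strands, stood at 2 places each in the windows of Id3 and Grem1, and 49.6% of all windows hold it. The E-box CANNTG, the kind of site bound by factors that ID proteins oppose, stood once in Id2, once in Smad6 and at 3 places in the Bmp4 window, against 72.3% of all windows. The KLF element CACCC stood in 5 of 8 windows, those of Id2, Id3, Bmpr1a, Smad6 and Grem1, and in 57.5% of all. The octamer ATGCAAAT and the AP-1 element TGANTCA stood in 0 of the 8, against 1.74% and 7.81% of all windows. One CACCC of the Grem1 window, at bases 28 to 32, shares its last base with a CAGAC at bases 32 to 36. The 8 windows had 60.0 to 79.3% G and C, where the median window has 52.7%, and 12 to 48 CG pairs, where the median is 7, and GGCGCC itself holds a CG pair. These matches describe letters and do not show binding.

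More peaks were listed at these loci at day 7 than at day 3 in both arms. In the Flag arm 6 of the 10 genes had more peaks at day 7, where 38.3% of all 16985 coding genes with a peak did, and 0 had fewer, where 15.3% did. In the D209N arm 8 had more, where 44.6% of all genes did, and 0 had fewer, where 9.16% did. These counts take each listed interval as a peak. Counted once per peak name, Grem1 had 1 peak in Flag day 7, fewer than its 2 in Flag day 3. Counted by region after merging the lists, Grem1 had 2 at day 3 and 1 at day 7 in each arm. By that count Bmpr1a went the other way in D209N, from 1 to 2. Between the arms at day 3, 4 genes had fewer peaks in D209N and 3 had more, where 32.3% and 7.61% of all genes did. At day 7, 2 had fewer in D209N and 3 had more, against 23.7% and 14.8%. The 10 loci are rich in peaks, with a median of 3.5, 3, 5.5 and 5.5 peaks per gene in Flag day 3, D209N day 3, Flag day 7 and D209N day 7, against 1, 1, 2 and 2 over all genes with a peak. Among the 10590 genes with at least as many peaks over the 4 lists as the lowest of the 10, 49.3% had more and 20.8% fewer at day 7 in Flag, and 57.0% had more and 12.7% fewer in D209N. Between the arms, 44.1% of these genes had fewer and 10.5% more in D209N at day 3, and 31.9% fewer and 20% more at day 7. Smad6 and Bmp7 held much of the difference between the days: without them the other 8 genes had 26, 22, 33 and 35 peaks, against 34, 29, 53 and 54 with them. The day 7 lists were also the longer ones, and the part of list length in these counts was not tested. The share of all peaks that lay at the 10 loci was 0.0935%, 0.0994%, 0.125% and 0.133% in the same order of lists.

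**Figure D1:**
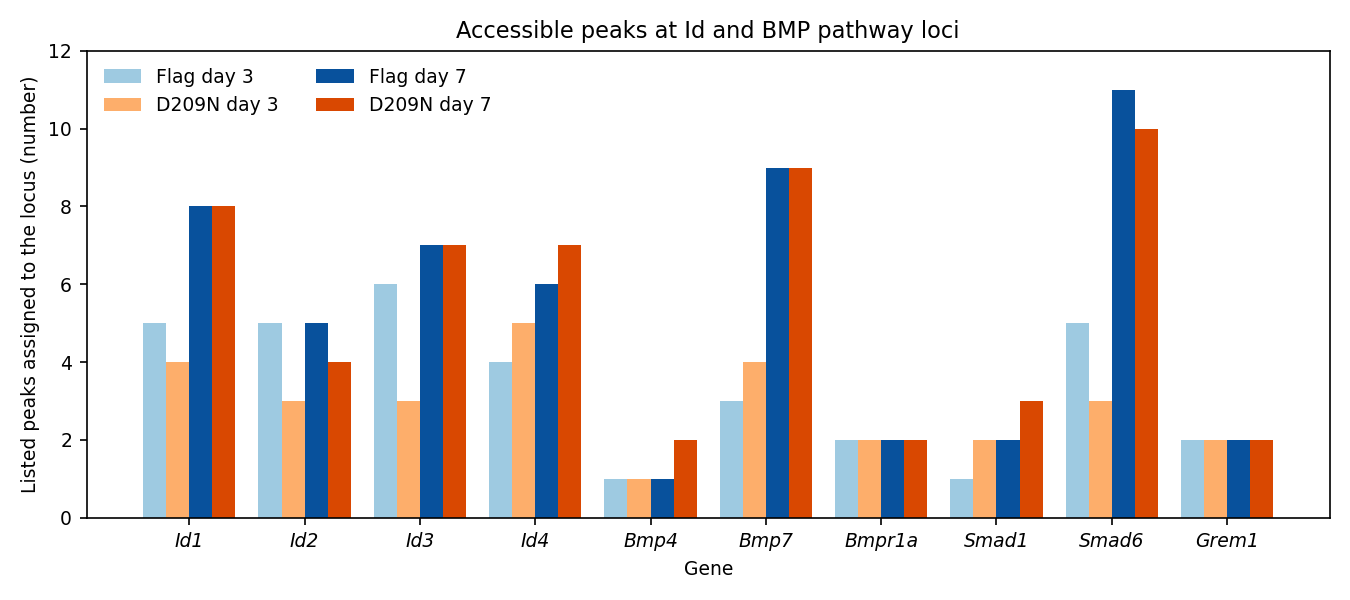
Number of listed peaks assigned to each of the 10 loci (vertical axis, number of peaks) in the 4 lists, 1 list per group and so without error bars. Smad6 and Bmp7 have the tallest day 7 bars, 11 and 10 and 9 and 9 peaks in Flag and D209N, while Bmpr1a and Grem1 stay at 2 in every list.

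Merging the 4 lists gave 55274 regions, of which 63 lay at the 10 loci. All 4 lists held 23 of the 63 (36.5%, exact Clopper-Pearson 95% interval 24.7 to 49.6%, which covers counting error only), against 40.7% of the 50706 regions assigned to any coding gene. Day 7 of both arms and no day 3 list held 12 regions (19.0%, interval 10.2 to 30.9%), against 13.2%. Of these 12, 5 lay at Smad6, and without that gene the share was 14.0%, or 7 of 50. All lists but D209N day 3 held 7 regions (11.1%, interval 4.59 to 21.6%), against 8.34%. The single-list regions numbered 16 (25.4%, interval 15.3 to 37.9%), against 25.5%. In each of these 4 shares the interval of the 10 loci held the value of all regions. Smad6 and Bmp7 had the most regions, and 3 of 13 and 2 of 12 of these were in all 4 lists, so leaving them out raises that share. Without them it was 47.4% (18 of 38), against 40.7% of all regions, and no interval was computed for it. The day 7 share was then 15.8% (6 of 38) and the single-list share 15.8% (6 of 38). Of the 16, 2 were in Flag day 3 alone, 1 in D209N day 3 alone, 8 in Flag day 7 alone and 5 in D209N day 7 alone, patterns of 6.48%, 1.72%, 10.5% and 6.8% of all regions. All lists but Flag day 3 held 2 regions, against 2.26%.

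Between the arms at day 3, 10 of the 63 regions were in Flag and not in D209N (15.9%, interval 7.88 to 27.3%), against 17.5% of all regions, and 4 were in D209N and not in Flag (6.35%, interval 1.76 to 15.5%), against 4.89%. At day 7 the corresponding numbers were 8 (12.7%, interval 5.65 to 23.5%), against 13.6%, and 7 (11.1%, interval 4.59 to 21.6%), against 9.81%. The arms thus differed in both directions at these loci on both days, at shares close to those of all regions.

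Regions listed at day 3 and missing at day 7 numbered 4 of 63 in Flag (6.35%, interval 1.76 to 15.5%), against 13.0% of all regions, and 2 in D209N (3.17%, interval 0.387 to 11.0%), against 7.31%. Regions absent at day 3 and listed at day 7 numbered 22 in Flag (34.9%, interval 23.3 to 48.0%), against 26.5%, and 25 in D209N (39.7%, interval 27.6 to 52.8%), against 29.6%. Near a gene end, within 1 kb, 9 of 13 regions stood in all 4 lists, where 73.6% of all such regions did. From 1 to 10 kb 7 of 17 did, where 31.5% of all such regions did, and beyond 10 kb 7 of 33 did, where 28.2% of all such regions did.

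**Figure D2:**
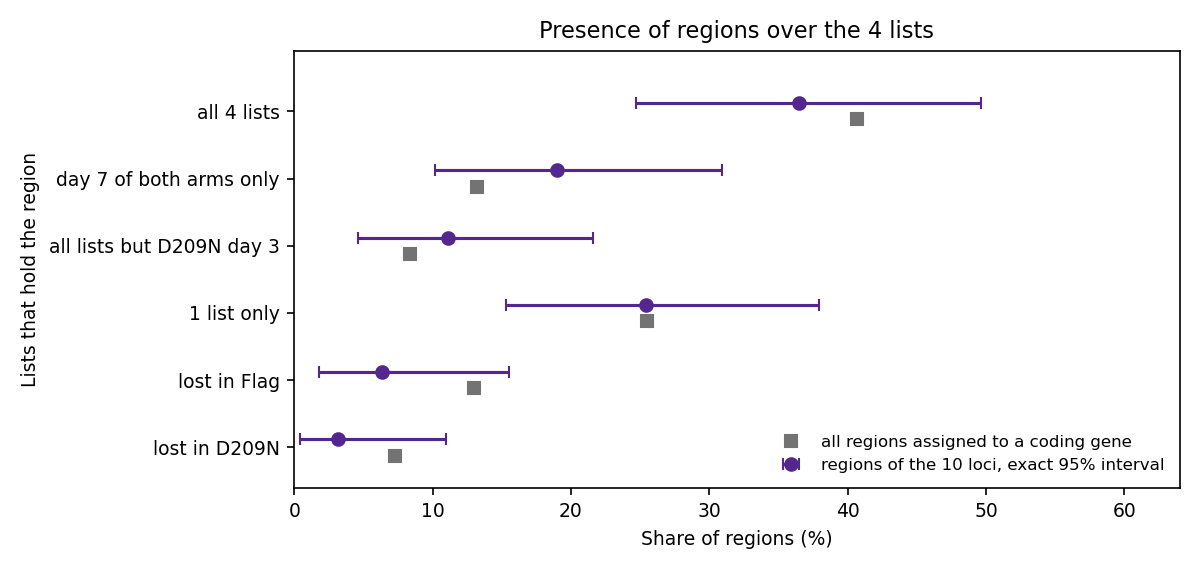
Share of regions (horizontal axis, percent) with each pattern of presence over the 4 lists. Circles are the 63 regions of the 10 loci with exact 95% intervals, and squares are all 50706 regions assigned to a coding gene; each interval includes its square, and the pair of lost patterns have circles at 6.35% and 3.17% against squares at 13.0% and 7.31%.

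A peak within 1 kb of a gene end was listed for 9 of the 10 genes in every list, the exception being Bmp4. Among all 21887 coding genes this share was 55.9% and 51.7% at day 3 for Flag and D209N, and 61.5% and 60.4% at day 7. That background includes genes with no peak in any list, whereas the 10 genes all had peaks in every list. The share over genes with a peak alone was not computed. In the following paragraphs runs of 4 widths or counts stand in the order Flag day 3, D209N day 3, Flag day 7, D209N day 7, and coordinates are those of GRCm38. The gene table gives outer gene ends without exons, so exon and intron were not told apart for peaks inside a gene.

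The ligand genes differed from each other in layout. Bmp4, whose product is a secreted ligand, lies at chr14:46383525-46390669 on the minus strand and had no peak at its start in any list; Id1 and Bmp7, whose strand is not in the tables used here, had a peak at 1 gene end, and the other 7 had one at the start in at least 3 lists. Its promoter window, printed above, was not touched by a peak in any list, although 54.8, 50.9, 59.6 and 59.0% of the 17492 genes with a window had one touched. Its accessible chromatin was listed inside the gene, in the region chr14:46386936-46388041, whose centre is 3.2 kb from the start side. There the day 3 peaks were 712 bp wide in Flag and 590 bp in D209N, and the day 7 peaks 1105 and 1078 bp. The day 7 peaks were thus wider than the day 3 peaks in both arms, and the arms differed by less than the days. The D209N day 7 list added a 354 bp peak 46.2 kb upstream, at chr14:46436703-46437056. Just past the 100 kb limit lay another pair of regions nearest to Bmp4, at 125.9 and 126.8 kb, which were not counted; the former was in every list but Flag day 3 and the latter in both day 7 lists.

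Bmp7, a ligand of epithelial and kidney development, lies at chr2:172868012-172940321. It had 3, 4, 9 and 9 peaks, in 12 regions spread over the gene and the stretch of lower coordinates beyond it. A single region there besides the one at the gene end was in all 4 lists, at chr2:172827371-172827962, 40.3 kb away, and its peaks were 441, 402, 297 and 348 bp wide. At the upper gene end, chr2:172940015-172940813, the peaks were 555, 507, 744 and 764 bp wide, so both day 7 lists exceeded both day 3 lists.

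The remaining 10 regions of Bmp7 were each missing from at least 1 list. Both day 7 lists held chr2:172862896-172863611, 4.8 kb below the lower gene end, at 264 bp in Flag and 716 bp in D209N. Every list but Flag day 3 held chr2:172867236-172867726, 0.5 kb below that end, at 121, 359 and 491 bp. Only the D209N lists held chr2:172811284-172811695, at 263 bp on day 3 and 412 bp on day 7, a pattern found in 0.379% of all regions. Every list but D209N day 3 held chr2:172788964-172789879, where the D209N day 7 list had 2 intervals under 1 peak name, of 75 and 342 bp. Flag day 7 alone listed 4 regions of 143 to 388 bp, the farthest at 94.6 kb, and D209N day 7 alone listed a 208 bp peak inside the gene at chr2:172876843-172877050 and an interval of 6 bp. The equal day 7 totals of 9 in both arms thus stood on partly separate sets of regions. Beyond the limit, a D209N day 7 region 109.3 kb away was not counted.

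Bmpr1a, the type I receptor gene at chr14:34411061-34503336 on the minus strand, had 2 peaks in every list. Its start region, chr14:34501982-34503321, was covered by a peak of 1317 bp in Flag day 3, 1310 bp in Flag day 7 and 1299 bp in D209N day 7. The D209N day 3 list had 2 separate intervals there, of 130 and 805 bp, and the longer one covered the whole promoter window. The other region, chr14:34453743-34454203 inside the gene, had peaks of 421, 349 and 412 bp in Flag day 3, Flag day 7 and D209N day 7, and none in D209N day 3. The constant count of 2 therefore stood for 2 regions in 3 lists and for 1 divided region in D209N day 3.

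Smad1, which carries the BMP signal to the nucleus, lies at chr8:79338395-79399428 on the minus strand and had 1, 2, 2 and 3 peaks. The start peak measured 541 bp in Flag day 3 (chr8:79399052-79399592) and 701 bp in D209N day 3 (chr8:79398903-79399603). In Flag day 7 it measured 1304 bp (chr8:79398329-79399632), and D209N day 7 had 2 intervals of 696 and 708 bp (chr8:79398110-79398805 and chr8:79399040-79399747) over about the same stretch. Both day 7 lists thus reached farther into the gene than the day 3 lists. Upstream, a region at chr8:79491156-79491508, 91.9 kb away, was in both day 7 lists at 302 and 239 bp. The D209N day 3 list alone had a 238 bp peak at chr8:79498743-79498980, 99.4 kb away and just inside the limit.

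Smad6, the inhibitory Smad at chr9:63953076-64022085 on the minus strand, had 5, 3, 11 and 10 peaks in 13 regions. Its day 7 counts were the highest of the 10 genes in both arms. The start peak hardly varied, with widths of 1216, 1173, 1268 and 1265 bp, and in every list it held the GTCTAGAC of the printed window. Another 2 regions were in all 4 lists, 28.1 kb upstream and 25.3 kb downstream of the gene. The upstream one, chr9:64049723-64050685, had peaks of 534, 415, 912 and 925 bp. The downstream one, chr9:63927429-63928219, had peaks of 236, 186, 714 and 670 bp, the largest day 7 to day 3 width ratios of the 23 regions held by all lists, 3.03 in Flag and 3.6 in D209N. At both regions either day 7 list exceeded both day 3 lists.

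Both day 7 lists and neither day 3 list held 5 Smad6 regions, 3 downstream of the gene and 2 inside it. The downstream ones were chr9:63896394-63896718 with peaks of 323 and 205 bp in Flag and D209N, chr9:63918189-63918701 with 345 and 266 bp, and chr9:63941737-63942205 with 438 and 406 bp. Those inside the gene were chr9:63959242-63959552 with 134 and 298 bp, and chr9:63970636-63971304 with 554 and 669 bp. Directly beside the last one, Flag day 3 alone had a peak of 495 bp at chr9:63971328-63971822, so that day 3 list was not without a peak in the neighbourhood. Every list but D209N day 3 held chr9:63980190-63980683, at 293, 465 and 494 bp. In the D209N day 3 list no peak inside the gene was listed apart from the one at its start. Flag day 7 alone had short peaks of 77 bp inside the gene and 160 bp upstream, and D209N day 7 alone had 1 of 301 bp inside it.

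Grem1 encodes gremlin 1, a secreted antagonist of BMP ligands, and lies at chr2:113748675-113758648 on the minus strand. Its count was 2 in every list, yet the peaks were not the same ones. Near the end of the gene away from the start, chr2:113749241-113749607, a peak of 367 bp was listed in Flag day 3 and of 108 bp in D209N day 3, and none at day 7 in either arm. It was the only one of the 63 regions held by both day 3 lists and neither day 7 list, a pattern of 3.93% of all regions.

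At the start of Grem1 the Flag day 3 peak lay at chr2:113758463-113758802 (340 bp) and the D209N day 3 peak at chr2:113758101-113758456 (356 bp), side by side without overlap. The day 7 lists had 2 intervals each, of 703 and 239 bp in Flag (chr2:113757456-113758158 and chr2:113758397-113758635, under 1 peak name) and of 578 and 415 bp in D209N (chr2:113757506-113758083 and chr2:113758501-113758915). The day 7 intervals joined the separate day 3 peaks into 1 region. Of the printed promoter window, 68.0% lay under a peak at day 3 in Flag and 0% in D209N, and at day 7 12.3% in Flag and 100% in D209N. The D209N day 7 peak alone held all 3 capitalised elements of that window, Flag day 3 held the GGCGCC and the CAGAC at bases 268 to 272, Flag day 7 held that CAGAC only, and D209N day 3 held none.

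**Figure D3:**
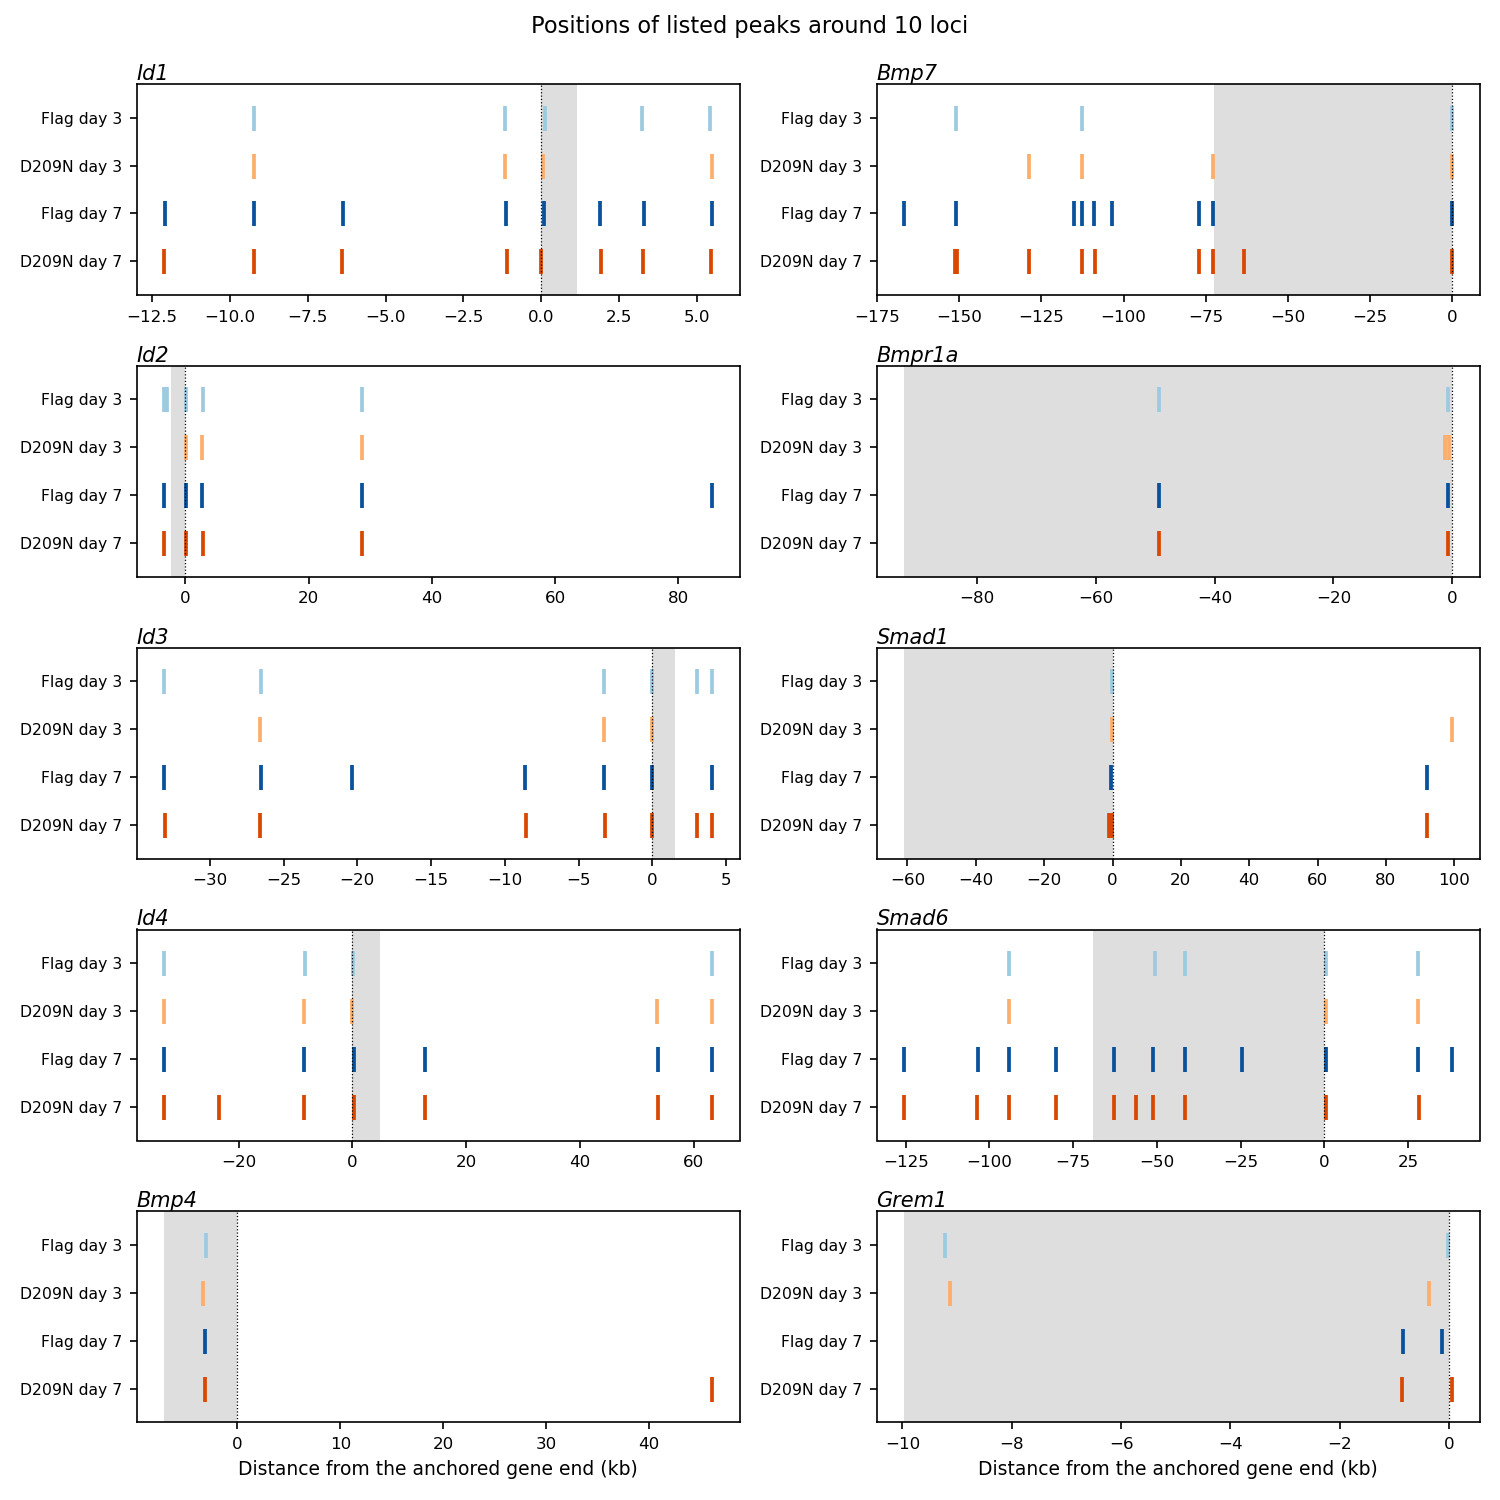
Midpoints of the listed peaks at the 10 loci by list, with distance in kb from 1 end of the gene on the horizontal axis (dotted line; for genes of known strand the start side) and the gene body in grey. Ticks stacked in all 4 rows mark shared regions, day 7 rows of Smad6 and Bmp7 hold the most ticks, and the Grem1 ticks near the far gene end are present at day 3 only.

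The Id genes, whose products restrain differentiation factors, had 20 peaks in Flag day 3 and 15 in D209N day 3. They had 26 in each day 7 list. The peaks lay in 29 regions, of which 14 were in all 4 lists, where 40.7% of all regions assigned to a coding gene were. Id2, Id3 and Id4 had a peak over their start in every list, and Id1, whose strand is not in the tables used here, had one over its lower end. Id1, at chr2:152736251-152737410, had 5, 4, 8 and 8 peaks in the 23.2 kb that were closer to it than to its neighbours. The peak over its lower end measured 367 bp in Flag day 3 (chr2:152736185-152736551), 298 bp in D209N day 3 (chr2:152736163-152736460), 373 bp in Flag day 7 (chr2:152736140-152736512) and 548 bp in D209N day 7 (chr2:152735983-152736530). Only the D209N day 7 peak stood apart in width, and it reached farther out from the gene.

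Id1 had 3 more regions in all 4 lists, at 9.2 and 1.1 kb on the lower side and 4.3 kb on the upper side of the gene. The first, chr2:152726748-152727285, kept its width, with 523, 510, 521 and 529 bp. The second, chr2:152734859-152735415, measured 330, 329, 338 and 557 bp, so that D209N day 7 was again the wide one. The third, chr2:152741545-152741941, measured 279, 312, 373 and 307 bp. Both day 7 lists and neither day 3 list held 3 regions: chr2:152723929-152724379 at 451 and 379 bp, chr2:152729758-152729976 at 187 and 212 bp and chr2:152738030-152738333 at 199 and 293 bp. A broader one, chr2:152739139-152739903, was missing from D209N day 3 only and had peaks of 729, 713 and 726 bp elsewhere. Its width was thus about equal in the 3 lists that held it.

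Id2, at chr12:25093799-25096092 on the minus strand, had 5, 3, 5 and 4 peaks. The start peak covered the whole printed window in every list, with 484, 502, 629 and 592 bp. Upstream, chr12:25098533-25099317 at 2.8 kb had 594, 391, 482 and 739 bp, and chr12:25124408-25125005 at 28.6 kb had 506, 324, 598 and 521 bp. In both of these the D209N day 3 peak was the narrowest. Downstream, chr12:25092395-25092942 had 446, 548 and 530 bp in the other lists and no peak in D209N day 3. Flag day 7 alone had a 207 bp peak 85.5 kb upstream, and 1 of the 5 Flag day 3 peaks was an interval of 8 bp.

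Id3, at chr4:136143822-136145392 on the plus strand, had 6, 3, 7 and 7 peaks. The start peak measured 433 bp in Flag day 3 (chr4:136143585-136144017), 246 bp in D209N day 3 (chr4:136143673-136143918), 546 bp in Flag day 7 (chr4:136143519-136144064) and 608 bp in D209N day 7 (chr4:136143498-136144105). The D209N day 3 peak was the narrowest and covered 66.3% of the printed window, against 95.7% in Flag day 3 and 100% in both day 7 lists. It left out the CAGAC at bases 84 to 88, which the other 3 peaks held, while the GTCTG at bases 183 to 187 lay inside all 4. Upstream, chr4:136116975-136117508 at 26.6 kb measured 253, 375, 482 and 534 bp and chr4:136140282-136140793 at 3.3 kb measured 345, 330, 495 and 405 bp, both in every list and both wider at day 7.

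Another 3 Id3 regions were in Flag day 3 and missing from D209N day 3. Every list but D209N day 3 held chr4:136110551-136110988 at 248, 258 and 438 bp, 33.1 kb upstream, and chr4:136147591-136148195 at 242, 605 and 508 bp, 2.5 kb downstream. The third, chr4:136146715-136146973, 1.5 kb downstream, was in Flag day 3 at 259 bp and in D209N day 7 at 193 bp only, a pattern of 1.28% of all regions. Both day 7 lists held chr4:136134859-136135592, 8.6 kb upstream, at 688 and 715 bp, which were among the wider peaks of the locus. Flag day 7 alone had 280 bp at chr4:136123312-136123591.

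Id4, at chr13:48261116-48266028 on the plus strand, was the only Id gene with more peaks in D209N than in Flag, with 4, 5, 6 and 7. Its start region, chr13:48260626-48262070, was the broadest of the Id genes, with 1113, 906, 1318 and 1445 bp. Regions 33.1 and 8.3 kb upstream and 58.4 kb downstream were in every list. The first, chr13:48227758-48228337, measured 490, 425, 554 and 580 bp. The second, chr13:48252405-48253187, was widest in Flag day 3, with 776 bp against 496, 523 and 548 bp. The third, chr13:48324112-48324723, measured 412, 350, 564 and 612 bp. Every list but Flag day 3 held chr13:48314473-48314970, at 279, 286 and 355 bp, and both day 7 lists held chr13:48273680-48273983, at 304 and 277 bp. D209N day 7 alone had 283 bp at chr13:48237601-48237883, and a region of that list 101.9 kb away lay just outside the limit.

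**Figure D4:**
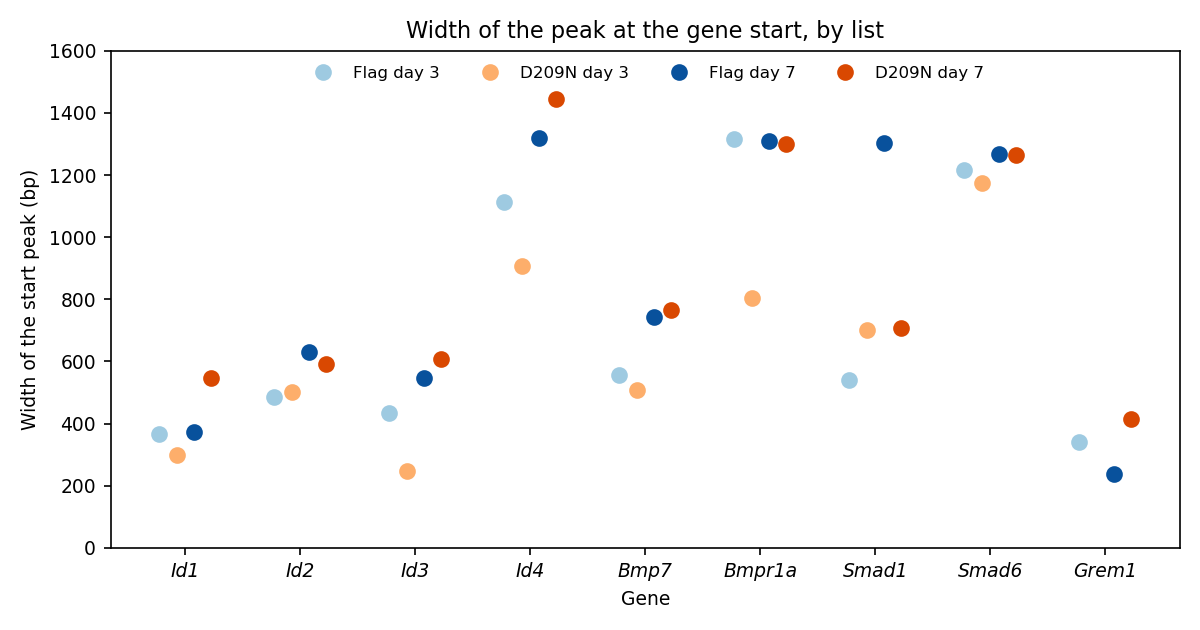
Width in bp of the single peak at the start of each gene (for Id1 and Bmp7, at the gene end with a peak) in each of the 4 lists; Bmp4 has no such peak and Grem1 none in D209N day 3. Id1, Id3, Id4, Bmp7, Bmpr1a and Smad6 have their narrowest point in D209N day 3, 298, 246, 906, 507, 805 and 1173 bp. Id2 and Smad1 have it in Flag day 3, 484 and 541 bp, and Grem1 in Flag day 7, 239 bp. Further intervals of a start region are not drawn. Summed, Bmpr1a has 935 bp in D209N day 3 and Smad1 has 1404 bp in D209N day 7.

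Start regions were compared in width, with the gene ends that carry a peak standing in for the starts of Id1 and Bmp7. Only regions in which the peaks of the compared lists overlap each other were used, which leaves Grem1 out wherever D209N day 3 takes part, and the intervals of 1 list within a region were summed. In Flag 8 of 9 start regions were wider at day 7 than at day 3, beside 67.1% of 21760 regions in all 4 lists. In D209N 8 of 8 were wider, beside 79.8% of 21743. These background regions lie at any distance from a gene, and a background of gene starts alone was not computed. The median ratio of day 7 to day 3 width at the start regions was 1.26 in Flag (range 0.995 to 2.77) and 1.55 in D209N (range 1.08 to 2.47). Over the background regions it was 1.1 and 1.23. The exception was Bmpr1a in Flag, at 1317 and 1310 bp. Counting every region of the 10 loci in all 4 lists, 18 of 23 were wider at day 7 in Flag and 20 of 22 in D209N. At day 3, D209N was wider than Flag in 4 of 22, where 30.8% of all such regions were, and at day 7 in 15 of 23, where 52.2% were. Width depends on depth and on the caller's threshold, which the files do not give, and their part was not tested. Over all peaks of a list the median width was 472, 464, 464 and 489 bp, and over the peaks of the 10 loci 444, 356, 451 and 501 bp.

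The other genes of the pathway, 44 listed by role, showed more peaks at day 7 in D209N for 27 of the 43 with a peak and fewer for 5. In Flag 17 had more at day 7 and 10 had fewer. Between the arms at day 3, 22 had fewer peaks in D209N and 3 had more, and at day 7, 11 had fewer and 10 had more. Of all genes with a peak, 44.6% had more and 9.16% fewer at day 7 in D209N, and 38.3% and 15.3% in Flag. In D209N at day 3, 32.3% had fewer than in Flag and 7.61% more, and at day 7 23.7% and 14.8%. Among the 10590 genes with at least 5 peaks over the 4 lists, the day shares were 57.0%, 12.7%, 49.3% and 20.8%. Their arm shares were 44.1%, 10.5%, 31.9% and 20%. The pathway genes had a median of 2, 1, 2 and 3 peaks, against 1, 1, 2 and 2 over all genes with a peak. Cer1, an antagonist gene, had no peak.

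The other targets are transcription factor genes that BMP signals are known to induce. Of these 5, 4 had more peaks at day 7 in Flag and 5 in D209N. Of all genes with a peak, 38.3% and 44.6% did so. Of the 10590 genes with at least 5 peaks over the 4 lists, a set not matched in peak number, 49.3% and 57.0% did so. Msx1 had 3, 1, 7 and 6 peaks and Msx2 had 1, 1, 4 and 4. Atoh8 had 2, 1, 6 and 7 and Dlx5 had 2, 0, 3 and 3. Each of these had its 2 lowest counts at day 3, but they were picked for a count that differed by at least 3. Hey1, the target not picked, had 2, 1, 2 and 2 peaks. Among ligands, Bmp2 had 4, 1, 2 and 3 peaks and Bmp8b had 1, 0, 1 and 3. Of the receptors, the type I receptor Bmpr1b had 3, 2, 6 and 4 and the type II receptor Bmpr2 had 5, 3, 2 and 4, while the co-receptor gene Rgma had 6, 7, 9 and 7. The receptor genes named here thus showed no common order of the lists. Of all 10 receptor and co-receptor genes, 5 had more peaks at day 7 in D209N and 0 had fewer. In Flag 3 had more and 3 had fewer.

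Inside the cell, Smad4, the shared partner of the receptor-activated SMADs, had 4, 6, 4 and 3 peaks. The second inhibitory Smad, Smad7, had 6, 7, 10 and 8. Ski, a repressor that binds SMADs, had 6, 5, 10 and 8, and Tob1, which restrains BMP SMAD activity, had 2, 1, 2 and 4. Smad7 and Ski thus had higher counts at day 7 in both arms, and Smad4 had its lowest count in D209N day 7. Outside the cell, the antagonist Fst had 5, 3, 5 and 6 peaks and Twsg1, a modulator, had 2, 2, 5 and 2. These genes are named because a count differed by at least 3 between the arms or the days.

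Genes elsewhere had nearly the same 4 counts as the most peak-rich loci. Closest to Smad6 by the summed difference over the 4 lists were Cux1 with 5, 4, 11 and 10 and Wwc1 with 5, 3, 10 and 10, each at a summed difference of 1, and then Anks1 with 6, 4, 11 and 10 at 2. Closest to Bmp7 were Cops8 with 3, 3, 9 and 10, Ergic1 with 3, 4, 10 and 8 and Itgb5 with 3, 4, 8 and 8, each at 2, and 6 genes stood at that difference. These genes were picked as the closest of all coding genes, so their closeness carries no evidence about the pathway. No other coding gene had exactly the 4 counts of Smad6 or of Bmp7. Exact matches were common at lower counts, and 808 other coding genes had the 4 counts of Bmpr1a.

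Cell type markers were read as the number of genes with a peak within 1 kb of a gene end. Among all coding genes 55.9, 51.7, 61.5 and 60.4% had one in the 4 lists. Of 8 fibroblast markers 6, 5, 6 and 6 had one, Twist2 being the gene missing in D209N day 3, and Thy1 and Pdgfra had none in any list. Of 8 pluripotency markers 2, 1, 2 and 2 had one: Zfp42 and Sall4 in Flag day 3, Zfp42 in D209N day 3, Prdm14 and Sall4 in Flag day 7, and Zfp42 and Sall4 in D209N day 7. Nanog, Esrrb, Dppa4, Dppa5a and Tdgf1 had none in any list. Among 5 macrophage markers Cd68 and Spi1 had one in every list, and among 4 endothelial markers Kdr and Tek did, while Ptprc, Adgre1, Csf1r, Pecam1 and Cdh5 had none. The part of these markers in the peaks of the 10 loci was not tested.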

How the data were processed

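The authors deposited 1 list of ATAC-seq peak intervals (chromosome, start, end, name) per group. Tools listed in the submitters' processing notes are CASAVA and Bowtie2 2.3.2, and the builds are mm10 and GRCm38.p5. The caller and threshold, any shift of insertion sites and how replicates entered a list: not given in the sources used here. All peak names carry rep1, and also the arm and day by which lists were matched to groups. The 3 mitochondrial intervals of each list were dropped. Read depth is unknown.

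Peaks were assigned to RefSeq genes of GRCm38.p6, and the lists were merged where they shared at least 1 bp, in Python 3.11.15 with numpy 2.4.6, pandas 2.3.3 and scipy 1.17.1. Widths were compared between lists only where their peaks overlap, a choice made after seeing the data. Intervals on shares are exact Clopper-Pearson intervals. No test between groups was possible with 1 list each. The 10 genes, the pathway and marker lists and the rules were chosen with earlier results of these data known. All 10 genes are named, as are pathway genes with a count that differs by at least 3, and for the 2 genes with most peaks at most 3 genes with the nearest counts, ties in alphabetical order. Samples of other assays were not used here.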

Additional observations from a re-analysis of the deposited data

Results flagged for a closer look

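Some loci went one way in 1 arm or day and the opposite way in the other, mostly by few peaks. The share of all genes that did so was not counted. With 1 list per group none of these differences was tested. The Id3 region chr4:136146715-136146973 was listed at 259 bp in Flag day 3 and not in Flag day 7, and was absent from D209N day 3 and listed at 193 bp in D209N day 7. This pattern was held by 650 of the 50706 regions assigned to a coding gene, or 1.28%.

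Between the days, Bmp2 had a difference of -2 peaks in Flag and 2 in D209N, and Bmpr2 had -3 in Flag and 1 in D209N. Between the arms, D209N minus Flag was -3 peaks at day 3 and 1 at day 7 for Bmp2, -2 and 2 for Bmpr2, and -2 and 1 for Fst. Differences of -1 at day 3 stood beside 2 at day 7 for Bmp8b, 2 for Tob1 and 1 for Atoh8. The opposite order was found for Smad4, with 2 at day 3 and -1 at day 7, for Rgma, with 1 and -2, and for Smad7, with 1 and -2. Acvr1 and Rgmb, with no difference of 3 or more, also reversed. Between the arms Acvr1 had -2 at day 3 and 1 at day 7, and Rgmb -1 and 1. Between the days Acvr1 had -1 in Flag and 2 in D209N, and Rgmb -1 and 1.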

How the results depend on the processing

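No paired analysis was possible because each group has 1 peak list, so replicates could not be paired or left out. The peaks at the 10 loci differed by -5 (D209N minus Flag, day 3), 1 (day 7), 19 (day 7 minus day 3, Flag) and 25 (D209N). No difference reversed under the alternatives run. Counting only peaks that overlap the gene gave 14, 12, 16 and 18 peaks in Flag day 3, D209N day 3, Flag day 7 and D209N day 7, with differences of -2, 2, 2 and 6. Counting only peaks wider than the median gave 16, 9, 25 and 29 peaks, a median width of 590 bp in D209N day 3, differences of 4 at day 7 and 9 between the days in Flag, and 31 regions, of which 9 were in all 4 lists and 7 in 1 list. In that setting 1 other pathway gene had more peaks in D209N at day 3, 6 had more and 3 fewer at day 7, and 6 had fewer at day 7 than at day 3 in Flag. Assigning peaks within 20 kb gave 19 peaks in D209N day 3 and 33 in Flag day 7, differences of 3 at day 7 and 8 between the days in Flag, and 38 regions, of which 5 were in 1 list. These settings count fewer peaks by construction. Nearest gene body, 1 count per peak name (chosen after seeing the data), a 2 kb or no window at the gene end, 50% overlap and merging within 200 bp moved no total, pattern count or gene-end count by over 1.5 times. With 1 count per peak name, however, Grem1 had 1 peak in Flag day 7 and 2 in Flag day 3, so it then had fewer at day 7. Depth, which limits what a list can hold, is unknown.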
